A study of Mus musculus with 24 samples.

Results

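The genes described here encode the proteins of the mouse cytosolic ribosome. They were chosen by symbol: every gene called Rpl or Rps followed by a number and at most 1 letter, plus Rplp0, Rplp1, Rplp2 and Rpsa, with names ending in -ps and the Rps6k kinases left out. The rule found 83 of the 27179 genes measured, 51 for the large subunit and 32 for the small subunit. Of these, 80 (48 large, 32 small) passed a filter on low values (10 or more in 3 or more libraries), as did 14517 genes in all. Rpl39, Rpl3l and Rpl10l did not pass. Rps4l, Rpl6l and Rpl32l carry ribosomal protein names but are annotated as processed pseudogenes in GENCODE M21, and the other 80 of the 83 are annotated as protein coding.

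Ribosomal proteins bind ribosomal RNA in the nucleolus, where the large and the small subunit are assembled, and each protein is needed in about the same number of copies as the RNA it binds. In vertebrates their mRNAs typically begin with a terminal oligopyrimidine (TOP) tract, a cytosine at the cap followed by a run of pyrimidines, through which mTOR signalling and the RNA-binding protein LARP1 adjust the translation and stability of the whole family. PDGFRb-positive stromal cells of white fat include the precursors of adipocytes, and the supply of ribosomes sets how much protein such cells can make.

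Because the TOP tract lies at the first transcribed bases, the sequence around the annotated start is shown for 6 genes, as 15 bases before the start and 15 from it on, taken from RefSeq on GRCm38.p6. Rpl13 (chr8:123102335-123102364, plus strand), Rps24 (chr14:24490663-24490692, plus strand) and Rpl35 (chr2:39005117-39005146, minus strand) were among the genes whose levels ranged most widely over the groups. Rps9 (chr7:3704026-3704055, plus strand) was among the genes with the largest difference between the sexes, Rpl7a (chr2:26910792-26910821, plus strand) was among those that ranged least, and Rpl39l (chr16:10170213-10170242, plus strand) had a pattern of its own. Capitals mark a run of at least 8 pyrimidines that overlaps these bases, and the run of Rpl13 begins before the first base shown and ends 7 bases before the annotated start, so that it does not cover the start.
Rpl13: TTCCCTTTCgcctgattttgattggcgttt
Rps24: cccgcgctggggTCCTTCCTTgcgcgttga
Rpl35: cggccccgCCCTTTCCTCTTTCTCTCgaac
Rps9: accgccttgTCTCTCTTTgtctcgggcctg
Rpl7a: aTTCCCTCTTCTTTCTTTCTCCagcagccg
Rpl39l: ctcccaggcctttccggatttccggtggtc
The runs of Rps24, Rpl35, Rps9 and Rpl7a cover the annotated start, and Rpl39l holds none in this window. Such a run was found in 31 of the 61 members with a RefSeq promoter entry (50.8%), against 20.0% of 27025 genes, and it covered the annotated start in 17 of the 61 (27.9%), against 4.16% of all genes. Over the promoter from 250 bases before to 50 bases after the start, read on both strands, the ETS core CCGGAAG was found in 25 members (41.0%), against 9.93% of all genes. The GC box GGGCGG was found in 36 members (59.0%, against 38.2%), the YY1 core AAGATGGC in 5 (8.20%, against 3.19%) and the E-box CACGTG in 6 (9.84%, against 8.09%). These matches describe the letters in the window only.

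The study sequenced bulk RNA of PDGFRb-positive cells, which had been isolated from white fat of C57BL/6 mice by flow cytometry, in 8 groups of 3 libraries. From gonadal fat these were M_FIP and F_FIP (FIP of males and of females) and M_APC and F_APC (APC of males and of females). From inguinal fat they were M_DPP4_pos and F_DPP4_pos (APCs with DPP4 on the surface) and M_DPP4_neg and F_DPP4_neg (APCs without it). No treatment or genetic change is stated for any group, the age of the mice and the surface markers behind FIP and APC are not given in the sources used here, and whether the 3 libraries of a group stem from separate mice is not stated. The p-values thus reflect variation between libraries alone, which may be technical.

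Library depth ranged between 9152470 and 18221692 reads. A value is a gene's reads over the size factor of its library, called a normalised count here. All 9 progenitor markers (Pdgfrb, Pdgfra and Dcn among them) were found in every group. One library stood apart: in replicate 1 of M_DPP4_neg the members took 2.84% of the reads, against 1.81% and 1.95% in the other two, and the summed normalised counts of mitochondrial ribosomal protein genes were 15521, against 11318 and 11894. The members' counts and medians that rest on M_DPP4_neg, and the values of the genes named there, are therefore given with and without it.

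Near-identical copies limit how far single members can be counted. Of all stretches of 50 bases in a member's transcript, a median of 55.5% also occurred in another annotated gene, and 51 of the 83 members shared more than 50% of theirs. The median member shared stretches with 10 other genes and the highest with 123. Rps27 shared 98.6% of its stretches and Rpl5 93.8%, whereas Rps24 shared 19.1%, and Rpl39l and Rpl3l, for example, shared none. These shares depend on the transcript taken, which had 345 bases for Rps27 and 1613 for Rps24. The 72 rows whose full gene names hold both "ribosomal protein" and "pseudogene", mitochondrial ones left out, held 0.240 to 0.391% as many reads as the members. Copies named otherwise are not in this count, and neither are reads that were not assigned to any row. Exons of 19 members overlap another gene, as in Rpl5 with Fam69a and Rps28 with Kank3, and since the strand setting of the counting is not given, reads of such pairs cannot be told apart.

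The members differed widely in level but moved together over the groups. Rplp0, whose protein anchors the stalk that recruits elongation factors, had the highest mean over the 24 libraries (13035 normalised counts), followed by Rpl4 (9868), Rpl8 (8586), Rplp1 (8538) and Rps3 (8525). Per kilobase of transcript, Rplp1 was highest at 17110 normalised counts per kilobase, followed by Rps15 (13148), Rpl41 (11975), Rps27 (10271) and Rps28 (10186). The lowest tested means were those of Rpl32l (7.81), Rpl39l (37.9), Rpl6l (41.4), Rps4l (233) and Rpl29 (566). Per kilobase of transcript, Rpl39l (68.9), Rpl29 (971), Rps27l (1167), Rps20 (1190) and Rpl21 (1411) were the lowest of those with a length. The length taken was that of the shortest transcript annotated as principal in GENCODE M21. For Rps20 it was 3706 bases, more than for any other member, so its low rank rests on that transcript. Of the tested members, 74 had a mean above 1000 normalised counts and 3 a mean under 100.

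On the log2(value + 1) scale, 77 of the 80 tested members had their lowest group mean in M_APC, 2 in F_APC and 1 in M_FIP. The highest group mean was in M_DPP4_pos for 73 members, in F_DPP4_pos for 3, in M_DPP4_neg for 3 and in F_APC for 1. The range between a member's highest and lowest group mean had a median of 1.13, with 0.74 for Rps27l at the low end and, apart from Rpl39l, 1.50 for Rpl13 at the high end. Rpl39l ranged over 6.81. Rps24 (1.44), Rpl5 (1.43), Rpl35 (1.42) and Rpl21 (1.41) followed Rpl13, and Rps16 (0.83), Rpl7a (0.87), Rps12 and Rps21 ranged little more than Rps27l. Over the 24 libraries the median Pearson correlation between 2 members was 0.952 (3160 pairs), and 75 of 80 members correlated above 0.9 with the mean of the others. The exceptions were Rps4l (0.13), Rpl32l (0.22), Rpl39l (0.67), Rpl6l (0.84) and Rps27l (0.896). These correlations are a description: the libraries share their groups and their size factors, and members share reads through their copies.

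**Figure D1:**
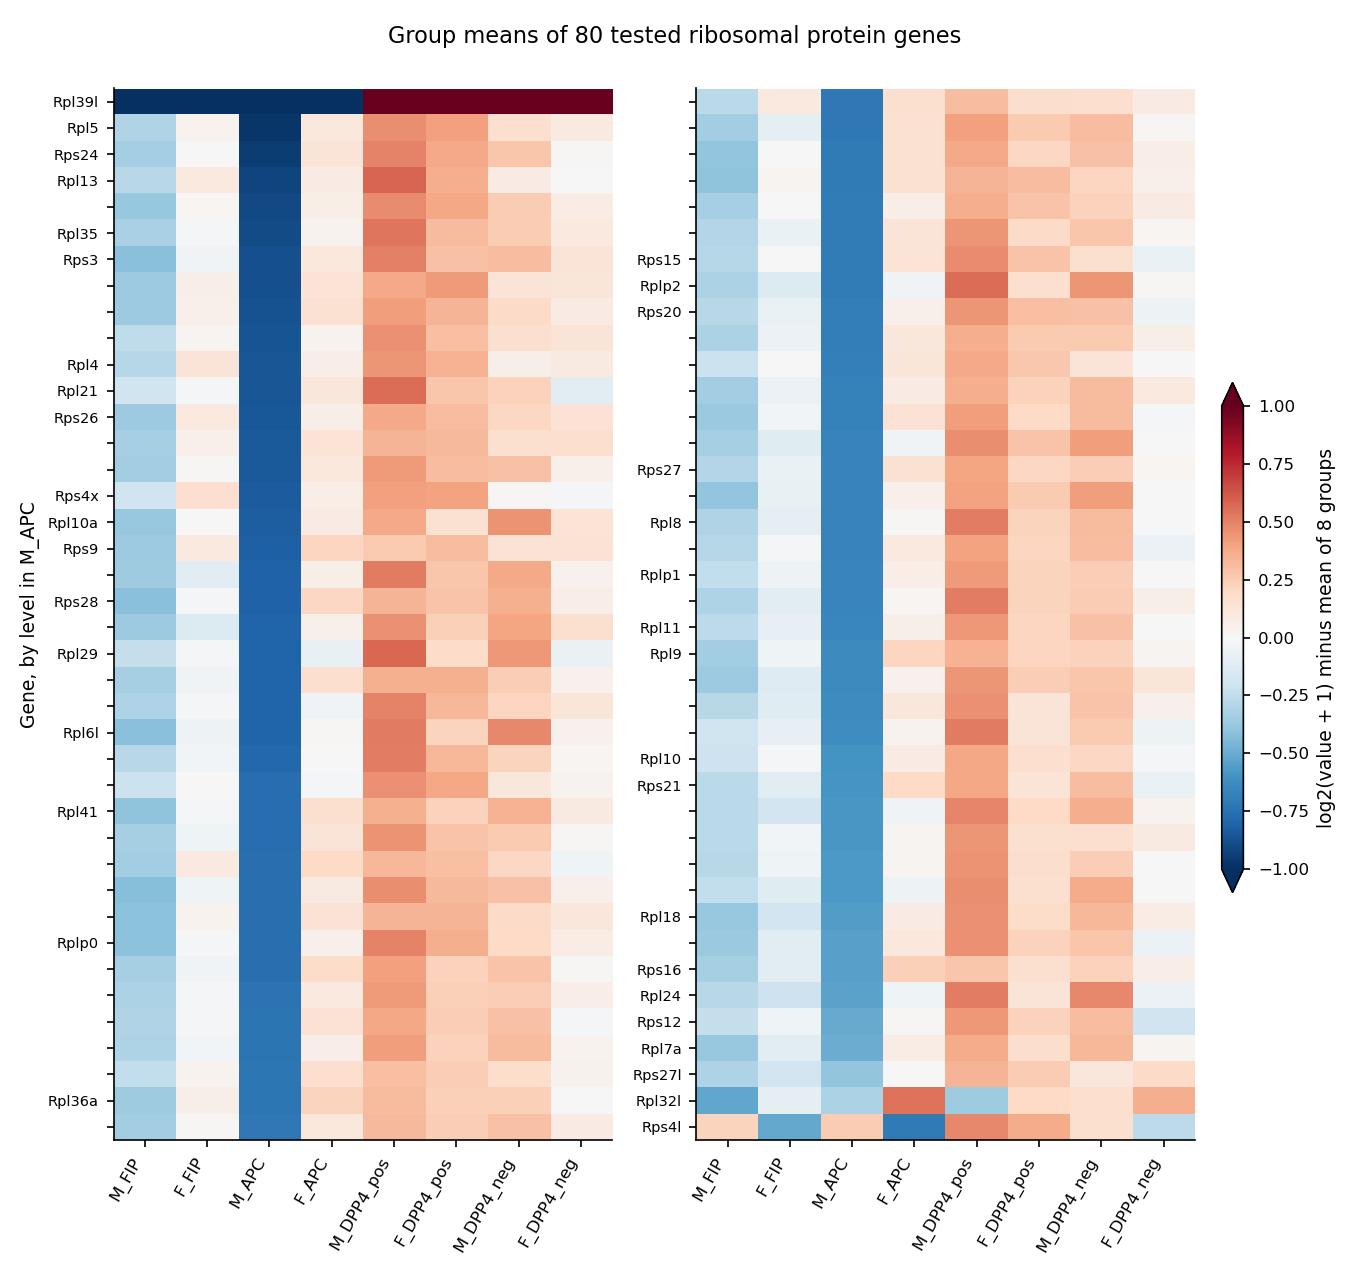
Group means of log2(value + 1) of the 80 tested members (rows, ordered by their level in M_APC, with labels for members the text names), each minus the member's mean of the 8 groups (columns). M_APC is the lowest group for 77 rows and M_DPP4_pos the highest for 73, with Rpl39l, Rps4l and Rpl32l as visible exceptions.

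The share of all reads taken by the members needs no size factor, and it too was lowest in M_APC. It was 1.98, 1.85 and 1.78% in M_FIP libraries and 2.10, 2.20 and 2.29% in F_FIP libraries. It was 1.46, 1.62 and 1.34% in M_APC libraries and 2.21, 2.49 and 2.48% in F_APC libraries. In inguinal fat it was 2.36, 2.36 and 2.51% in M_DPP4_pos, 2.35, 2.38 and 2.39% in F_DPP4_pos, 2.84, 1.81 and 1.95% in M_DPP4_neg and 2.30, 2.28 and 2.22% in F_DPP4_neg. The male gonadal libraries lay below all female gonadal ones, while in the inguinal groups the sexes overlapped. By this share M_DPP4_pos did not stand out as highest: its mean was 2.41%, against 2.39% in F_APC and 2.37% in F_DPP4_pos. Leaving the 5 most abundant other genes out of the total kept M_APC lowest (1.62%), with M_FIP at 2.04% and the other 6 groups between 2.41 and 2.66%. F_APC was then highest at 2.66%, with M_DPP4_pos at 2.64%. In bulk RNA, fewer cells with many ribosomal protein mRNAs, less such mRNA per cell and more of other mRNA per cell cannot be told apart.

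**Figure D2:**
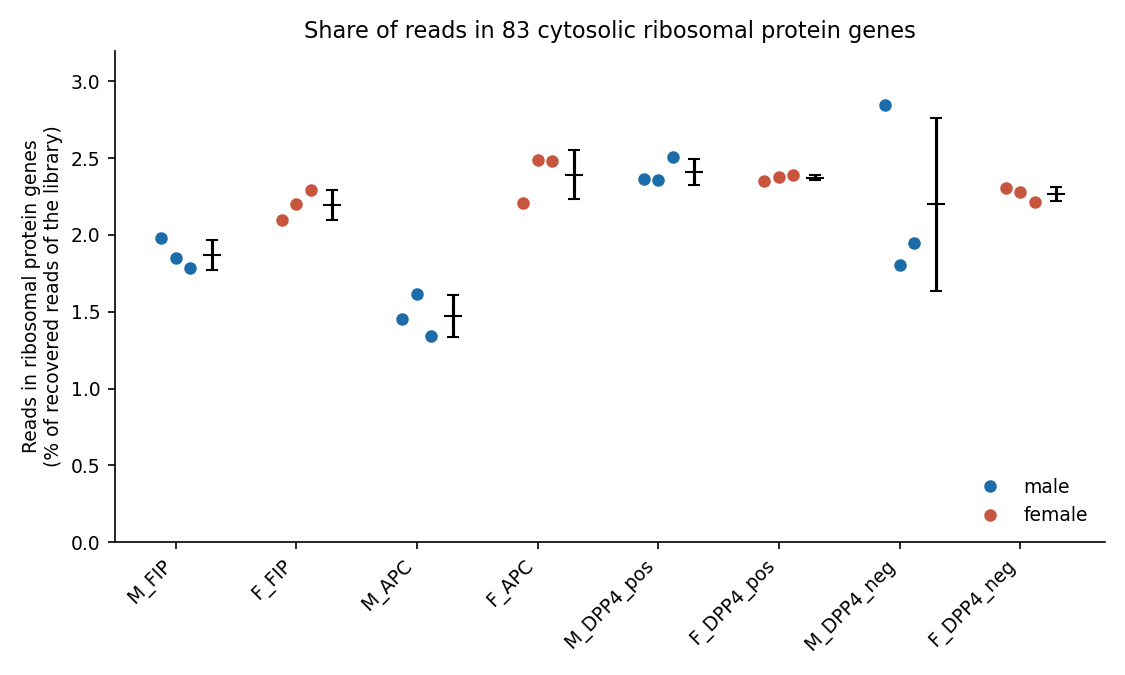
Share of all reads (percent, y axis) taken by the 83 members in each of the 24 libraries, by group, with points for libraries and the mean ± SD of 3 libraries. M_APC libraries lie between 1.34 and 1.62%, below every other library, and replicate 1 of M_DPP4_neg lies above every other library at 2.84%.

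Between male and female gonadal APC nearly the whole family differed. Tests were run with limma on log2(value + 1) with 1 spread estimate per gene over all 24 libraries, and calls were made below 0.05 after Benjamini-Hochberg adjustment across all genes tested. In M_APC against F_APC, 77 of 80 members were lower and 1 was higher, where 22.1% of all genes tested were lower and 22.4% higher. The members' median log2 fold change was -0.82. By subunit, 46 of 48 large-subunit genes were lower (median -0.80) and 31 of 32 small-subunit genes (median -0.83). In every one of the 16 comparisons reported here, the median log2 fold change of all genes tested lay between -0.04 and 0.05. Size factors are chosen to bring typical genes near 0, so this median is no independent reference, and it moved with total reads as the scaling.

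The 3 stalk genes Rplp0, Rplp1 and Rplp2 were all lower in M_APC. Rplp0 had 7516, 7987 and 6982 normalised counts in M_APC libraries, against 12444, 13655 and 12977 in F_APC libraries. The highest M_APC library thus lay well below the lowest F_APC library. The log2 fold change of Rplp0 was -0.80 ± 0.09 (SE; limma, Benjamini-Hochberg adjusted p = 5.34e-08).

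Rpl5 and Rpl11, which bind the small ribosomal RNA of the large subunit and, when free, the p53 regulator Mdm2, were both lower. Rpl5 had 2659, 2957 and 2414 normalised counts in M_APC libraries, against 5349, 5945 and 5589 in F_APC libraries. Its values in M_APC did not reach those of any F_APC library, and its log2 fold change of -1.08 ± 0.12 was among the 3 lowest of the family (limma, Benjamini-Hochberg adjusted p = 5.56e-08). Rpl11 had 2210, 2499 and 2143 normalised counts in M_APC libraries, against 3431, 3848 and 3918 in F_APC libraries. Its groups did not overlap either, with a smaller log2 fold change of -0.71 ± 0.11. Rpl4, which lines the exit tunnel for the new protein, had 5466, 5323 and 5012 normalised counts in M_APC libraries, against 9765, 10417 and 9895 in F_APC libraries. This is a log2 fold change of -0.93 ± 0.08 with a small spread in both groups.

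In the small subunit, Rps24, one of the genes mutated in human Diamond-Blackfan anaemia, had 2422, 3016 and 2325 normalised counts in M_APC libraries, against 4877, 5797 and 5636 in F_APC libraries. The groups did not overlap, and the log2 fold change was -1.08 ± 0.15 (limma, Benjamini-Hochberg adjusted p = 1.25e-06). Rps9, at the entry of the mRNA channel, had 1177, 1292 and 1120 normalised counts in M_APC libraries, against 2377, 2503 and 2450 in F_APC libraries. Here too each M_APC library lay below each F_APC library, with a log2 fold change of -1.03 ± 0.10 (limma, Benjamini-Hochberg adjusted p = 4.24e-09). The smallest decreases among the members called lower were those of Rps27l (-0.39 ± 0.13), Rpl24 (-0.49 ± 0.10) and Rps12 (-0.52 ± 0.13). The 3 tested X-linked members, Rpl10, Rpl36a and Rps4x, were all lower in M_APC, with a median of -0.90, so their fold changes lay within the range of the other members. Of the members whose exons overlap another gene 19 of 19 were lower, and of the others 58 of 61.

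Rps4l was the exception that was higher in M_APC. It had 262, 303 and 236 normalised counts in M_APC libraries, against 125, 130 and 158 in F_APC libraries. The groups did not overlap, and the log2 fold change was 0.95 ± 0.14 (limma, Benjamini-Hochberg adjusted p = 6.20e-06). Rps4x, the X-linked protein-coding gene whose name it shares, went the other way, at 2639, 2945 and 2470 normalised counts in M_APC libraries against 4736, 5318 and 4950 in F_APC libraries.

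Markers of other cells also differed between these groups, and their part in the result was not tested. The 9 mural markers summed to between 3524 and 4236 normalised counts in M_APC libraries and between 2454 and 2943 in F_APC libraries, with 3 genes higher and 2 lower. The 9 mesothelial markers summed to between 2780 and 3093 in M_APC and between 4357 and 4510 in F_APC, with 6 genes lower; Wt1 makes up most of these sums, and the list without Wt1 and its 3 keratins summed to between 213 and 333 in M_APC and between 717 and 918 in F_APC. The 12 macrophage markers summed to between 636 and 866 in M_APC and between 386 and 758 in F_APC, with 2 genes higher, and the 9 endothelial markers to between 2483 and 3055 in M_APC and between 1553 and 2797 in F_APC, with 3 genes higher. The 9 epithelial markers summed to between 24.7 and 30.5 in M_APC and between 52.3 and 209 in F_APC (Elf5 at 0), and the 7 adipocyte markers to between 878 and 1127 in M_APC and between 1276 and 1477 in F_APC. Sums of the 7 lymphocyte markers were between 33.3 and 68.4 in M_APC, where Cd3e and Nkg7 were at 0, and between 9.51 and 18.0 in F_APC, where Cd3g and Nkg7 were at 0. Leaving out any 1 library of these groups kept the number of called members between 77 and 78.

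**Figure D3:**
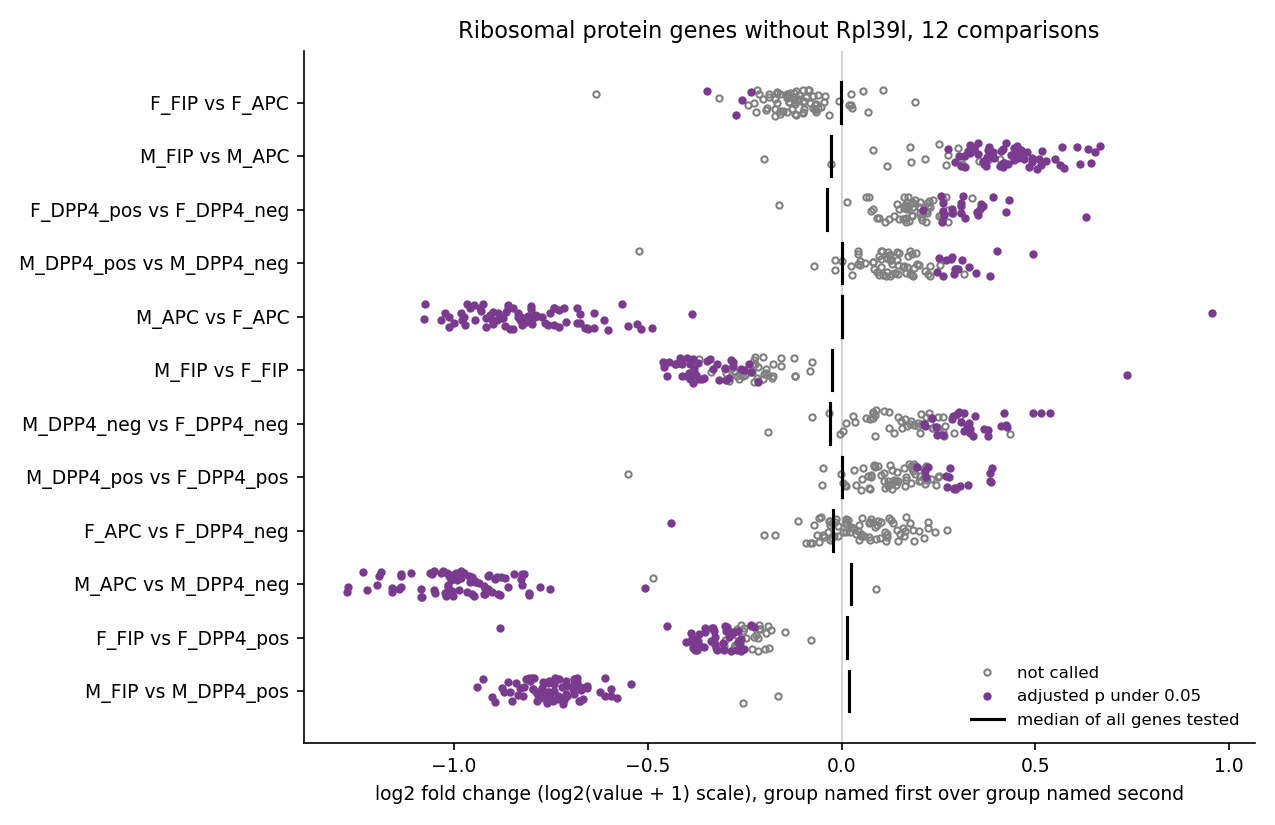
Log2 fold changes (x axis) of 79 tested members, Rpl39l left out for its scale, in the 12 comparisons of 2 groups (y axis), with filled points for members at an adjusted p under 0.05 and a black bar for the median of all genes tested. The points for M_APC against F_APC, M_APC against M_DPP4_neg and M_FIP against M_DPP4_pos lie almost wholly left of 0, with medians of -0.82, -0.98 and -0.74.

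Between the gonadal populations, males and females differed. In M_FIP against M_APC, 61 of 80 members rose and none fell, where 18.9% of all genes tested were higher and 18.0% lower, and the members' median log2 fold change was 0.39. In F_FIP against F_APC, 1 member was higher and 4 were lower, where 21.3% of all genes were higher and 18.1% lower, and both shares of the members were below these, and the median was -0.12. The test of the difference itself, the FIP minus APC change in males minus that in females, called 50 members higher and none lower (median 0.53), where 5.46% of all genes were called higher and 5.33% lower. Of the 48 large-subunit genes 33 were called in this difference, and of the 32 small-subunit genes 17.

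In males the rise took in all 3 stalk genes and both Rpl5 and Rpl11. Rpl5 had 4597, 4263 and 3875 normalised counts in M_FIP libraries, against 2659, 2957 and 2414 in M_APC libraries. The groups did not overlap, and the log2 fold change was 0.67 ± 0.12 (limma, Benjamini-Hochberg adjusted p = 6.91e-05). Rpl21, a large-subunit protein, had 1094, 1040 and 1058 normalised counts in M_FIP libraries, against 647, 693 and 688 in M_APC libraries. Each M_FIP library lay above each M_APC library, with a log2 fold change of 0.65 ± 0.11 (limma, Benjamini-Hochberg adjusted p = 2.84e-05). Rpl13 followed at 1856, 1910 and 1756 normalised counts in M_FIP libraries, against 1219, 1277 and 1049 in M_APC libraries. Its log2 fold change was 0.64 ± 0.08, and Rplp0, at 0.34 ± 0.09, changed less. Rps27l (0.08 ± 0.13), Rpl7a (0.12 ± 0.09) and Rps4l (-0.03 ± 0.14) did not pass the test.

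Markers of other cells moved with this comparison too, and their part in the result was not tested. In normalised counts, the 9 mural markers summed to between 2033 and 2272 in M_FIP libraries and between 3524 and 4236 in M_APC libraries, with 5 genes lower. The 12 macrophage markers summed to between 412 and 583 in M_FIP and between 636 and 866 in M_APC, with 2 genes lower. The 7 adipocyte markers summed to between 332 and 390 in M_FIP and between 878 and 1127 in M_APC, with 5 lower among the 6 tested. The 9 mesothelial markers summed to between 3803 and 4109 in M_FIP and between 2780 and 3093 in M_APC, with none called. The 18 immediate early genes, which respond to stress during tissue dissociation, summed to between 350352 and 385583 in M_FIP and between 492536 and 515755 in M_APC, with 10 lower and 5 higher. None of these sums overlapped between M_FIP and M_APC.

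In females the 4 members called lower in FIP were few and their differences small. Rps16 had 3654, 3933 and 4203 normalised counts in F_FIP libraries, against 4803, 5095 and 5080 in F_APC libraries. It fell by 0.35 on the log2 scale (SE 0.09; limma, Benjamini-Hochberg adjusted p = 0.00375), without overlap of the groups. Rpl18 (-0.27 ± 0.11) and Rpl9 (-0.26 ± 0.10) were also lower, with adjusted p = 0.0447 and 0.0458 by limma with Benjamini-Hochberg adjustment. Rpl5, at 4897, 5525 and 5692 normalised counts in F_FIP libraries against 5349, 5945 and 5589 in F_APC libraries, overlapped between the groups and did not pass.

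In the sex difference, Rpl21 had 0.79 ± 0.15, Rpl5 0.74 ± 0.17 and Rps24 0.74 ± 0.21 on the log2 scale (limma, Benjamini-Hochberg adjusted p = 0.00114, 0.00481 and 0.0194). The count of 50 depended on single libraries: it was 27 without replicate 1 of M_FIP, 27 without replicate 1 of F_FIP, 26 (25 higher, 1 lower) without replicate 3 of M_APC, and 33 without replicate 2 or without replicate 3 of F_APC. The count of 5 in females was 1 without replicate 1 or without replicate 2 of F_FIP and 2 without replicate 2 or without replicate 3 of F_APC.

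Male FIP were also below female FIP, by less than in APC. In M_FIP against F_FIP, 39 of 80 members were lower and 1 was higher, where 19.0% of all genes were lower and 18.2% higher, with a median of -0.28. Rps26, which lies where the mRNA leaves the small subunit, had 2605, 2350 and 2298 normalised counts in M_FIP libraries, against 3255, 3369 and 3337 in F_FIP libraries. The groups did not overlap, and the log2 fold change was -0.46 ± 0.13 (limma, Benjamini-Hochberg adjusted p = 0.00549). Rps9 (-0.46 ± 0.10) was lower by about as much. Rps4l was again the member that was higher, at 265, 268 and 250 normalised counts in M_FIP libraries against 172, 144 and 153 in F_FIP libraries, a log2 fold change of 0.74 ± 0.14 (limma, Benjamini-Hochberg adjusted p = 0.000228).

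The count of 40 in this comparison was 25 without replicate 2 and 19 without replicate 3 of M_FIP, and 26 without replicate 2 and 23 without replicate 3 of F_FIP. The 12 macrophage markers summed to between 412 and 583 normalised counts in M_FIP libraries and between 176 and 236 in F_FIP libraries, with 10 of 12 higher, and the 9 endothelial markers to between 2349 and 3252 in M_FIP and between 988 and 1172 in F_FIP, with 7 higher. The 9 mural markers summed to between 2033 and 2272 in M_FIP and between 959 and 991 in F_FIP, with 6 higher. The 7 adipocyte markers summed to between 332 and 390 in M_FIP and between 127 and 160 in F_FIP, where Cidea was at 0, with 6 higher among the 6 tested. The part of these markers in the result was not tested.

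Across depots, gonadal APC were set against inguinal DPP4_neg cells and gonadal FIP against inguinal DPP4_pos cells, within each sex. In M_APC against M_DPP4_neg, 78 of 80 members were lower and none higher, where 33.0% of all genes were lower and 33.1% higher, and the median log2 fold change was -0.98. In F_APC against F_DPP4_neg, 2 members were lower and none higher, where 32.2% of all genes were lower and 26.8% higher, and the median was 0.04. The difference between the sexes in this depot contrast was called for 77 members, 76 lower and 1 higher, with a median of -1.03, where 20.3% of all genes were called lower and 22.6% higher.

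Rpl10a, part of the mobile stalk beside the exit site for transfer RNA, had 1992, 2087 and 1938 normalised counts in M_APC libraries, against 5785, 4406 and 4457 in M_DPP4_neg libraries. Each M_APC library lay far below each M_DPP4_neg library, and the log2 fold change was -1.27 ± 0.08 (limma, Benjamini-Hochberg adjusted p = 6.76e-13). In females Rpl10a had 3445, 4101 and 3752 normalised counts in F_APC libraries, against 3879, 3994 and 3854 in F_DPP4_neg libraries. Those groups overlapped. Rps24 had the largest sex difference, -1.34 ± 0.21 (limma, Benjamini-Hochberg adjusted p = 1.01e-05): M_APC stood at the values given above, M_DPP4_neg at 8907, 4822 and 5027, F_APC above and F_DPP4_neg at 5289, 5091 and 4645. Rpl21 (-1.30 ± 0.15) and Rps28 (-1.30 ± 0.18) came next. The 2 members lower in F_APC were Rpl39l and Rps4l, and the count was 1 without replicate 1 of F_APC or replicate 1 of F_DPP4_neg, while 2 were higher and 2 lower with TMM scaling and 3 higher and 2 lower after quantile normalisation.

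Replicate 1 of M_DPP4_neg was the highest library for most of these genes, as Rps24 shows. Without it, 78 members were still lower in M_APC, with a median of -0.78 and with Rpl10a at -1.14 ± 0.07, and the sex difference had a median of -0.83 with between 76 and 77 members called over all libraries left out in turn. In that difference Rps24 had -1.05 ± 0.13, Rpl21 -1.09 ± 0.10 and Rps28 -1.04 ± 0.11 without the library. The scaling also moved these values: with total reads as the only scaling, the median of all genes moved to 0.43 and that of the members to -0.56, with 77 members lower and 1 higher. The 18 immediate early genes summed to between 492536 and 515755 normalised counts in M_APC libraries and between 530161 and 557169 in F_APC libraries, and all inguinal libraries lay between 154456 and 235477, so they moved with the depot in both sexes. The 9 endothelial markers summed to between 2483 and 3055 in M_APC and between 323 and 593 in M_DPP4_neg, with 9 higher. The 9 mesothelial markers summed to between 2780 and 3093 in M_APC and between 48.1 and 90.3 in M_DPP4_neg, with 8 higher. The 7 adipocyte markers summed to between 878 and 1127 in M_APC and between 2166 and 2872 in M_DPP4_neg, although 5 of the 6 tested were higher in M_APC and 1 was lower. In females, the 9 epithelial markers summed to between 52.3 and 209 in F_APC and between 4109 and 9912 in F_DPP4_neg. Krt8, Krt18 and Krt19 of the mesothelial list summed to between 148 and 216 in F_APC and between 6794 and 16484 in F_DPP4_neg. The other 6 mesothelial markers went the other way, at between 4210 and 4294 in F_APC and between 57.2 and 65.2 in F_DPP4_neg. The part of these genes in the results of either sex was not tested.

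Male FIP were below male DPP4_pos cells in the same way. In M_FIP against M_DPP4_pos, 78 of 80 members were lower and none higher, where 32.4% of all genes were lower and 32.6% higher, with a median of -0.74. In F_FIP against F_DPP4_pos, 51 were lower and none higher, where 22.6% of all genes were lower and 22.1% higher, with a median of -0.29. The sex difference was called for 52 members, 51 lower and 1 higher, with a median of -0.46, where 19.2% of all genes were called lower and 15.7% higher. Of the members lower in one sex or the other, 50 were lower in both, which is 98.0% of the 51 in females and 64.1% of the 78 in males.

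Rps3, which lies at the mRNA entry, had 6349, 6162 and 5814 normalised counts in M_FIP libraries, against 11427, 11291 and 12023 in M_DPP4_pos libraries. The groups did not overlap, and the log2 fold change was -0.92 ± 0.12 (limma, Benjamini-Hochberg adjusted p = 3.54e-07). Rplp0 had 9693, 9561 and 9222 normalised counts in M_FIP libraries, against 17777, 17173 and 18235 in M_DPP4_pos libraries, a log2 fold change of -0.90 ± 0.09. In females Rplp0 had 12614, 12514 and 12203 normalised counts in F_FIP libraries, against 15869, 15713 and 16995 in F_DPP4_pos libraries. The female groups did not overlap either, with a log2 fold change of -0.38 ± 0.09 (limma, Benjamini-Hochberg adjusted p = 0.00102). Rps27l, the p53-responsive paralogue of Rps27, was among the members lowest in F_FIP against F_DPP4_pos, at -0.45 ± 0.13. In the sex difference Rpl29 had -0.61 ± 0.17, Rpl10a -0.61 ± 0.11 and Rpl13 -0.59 ± 0.12, while Rps4l had 0.63 ± 0.20.

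Markers of other cells differed between these groups as well. The 9 endothelial markers summed to between 2349 and 3252 normalised counts in M_FIP libraries and between 435 and 520 in M_DPP4_pos libraries, with 9 higher. The 9 mural markers summed to between 2033 and 2272 in M_FIP and between 640 and 807 in M_DPP4_pos, with 7 higher and 2 lower. The 9 mesothelial markers summed to between 3803 and 4109 in M_FIP and between 51.8 and 101 in M_DPP4_pos, with 9 higher. The 18 immediate early genes summed to between 350352 and 385583 in M_FIP and between 154456 and 164494 in M_DPP4_pos, with 16 higher and 2 lower. In females they summed to between 333300 and 349643 in F_FIP and between 202651 and 235477 in F_DPP4_pos, and the part of these genes in either result was not tested.

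These medians and the female count depend on the scaling. With total reads as the scaling the median was -0.36 in males, with 68 members lower, and -0.11 in females, while the median of all genes moved to 0.39 in males and 0.19 in females. In females 4 members were called with total reads as the scaling and 5 after quantile normalisation, and the sex difference was then called for 6 members (1 higher, 5 lower) and 8 members (1 higher, 7 lower). Of single libraries, leaving out replicate 1 or 2 of F_FIP gave 19 and 33 members in females, replicate 2 or 3 of F_DPP4_pos 28 and 25, and leaving out replicate 3 of M_DPP4_pos gave 34 in the sex difference.

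Within inguinal fat the differences were small and in 1 direction. In F_DPP4_pos against F_DPP4_neg, 22 of 80 members were higher and none lower, where 22.6% of all genes were higher and 27.1% lower, with a median of 0.21. In M_DPP4_pos against M_DPP4_neg, 16 were higher and none lower, where 25.2% of all genes were higher and 25.3% lower, with a median of 0.14. These shares of the members called higher lie near those of all genes or below them. Of the 22 and 16 members, 12 were higher in both sexes, 54.5% of those in females and 75.0% of those in males. The difference between the sexes was called by limma for 0 members, with 0 members at an unadjusted p under 0.05 and a median of -0.06, where 16.4% of all genes were called higher and 12.6% lower, and it was called for 0 members by edgeR and by DESeq2 as well.

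Rpl13 had 3357, 3254 and 3380 normalised counts in M_DPP4_pos libraries, against 2806, 2080 and 2269 in M_DPP4_neg libraries, and the groups did not overlap. Its log2 fold change of 0.49 ± 0.08 was the largest of the male comparison (limma, Benjamini-Hochberg adjusted p = 1.90e-05). Rps4x, an X-linked small-subunit gene, had 5942, 6643 and 6384 normalised counts in F_DPP4_pos libraries, against 5066, 4662 and 4415 in F_DPP4_neg libraries. In males it had 6104, 6307 and 6661 in M_DPP4_pos and 6372, 3906 and 4464 in M_DPP4_neg, so the male groups overlapped through replicate 1 of M_DPP4_neg. Its log2 fold changes were 0.42 ± 0.11 in females and 0.40 ± 0.11 in males (limma, Benjamini-Hochberg adjusted p = 0.00311 and 0.00462). Rps12 had 0.43 ± 0.13 in females, and Rpl4 had 0.38 ± 0.08 in males. In females, the 9 epithelial markers summed to between 221 and 383 normalised counts in F_DPP4_pos and between 4109 and 9912 in F_DPP4_neg. The 9 endothelial markers went the other way, at between 1816 and 1896 in F_DPP4_pos and between 849 and 1038 in F_DPP4_neg. The part of these markers in the female result was not tested.

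Single libraries decide these counts. Without replicate 1 of M_DPP4_neg, 76 members were higher in males (median 0.36), with Rpl13 at 0.62 ± 0.07, Rps4x at 0.61 ± 0.09 and Rpl4 at 0.46 ± 0.08, and 6 were called higher in the sex difference (median 0.14), and the male count was 7 without replicate 3 of M_DPP4_pos, and 3 and 6 without replicates 2 and 3 of M_DPP4_neg, while the sex difference was called for 1 member without replicate 2 of M_DPP4_neg and for 1 without replicate 1 of F_DPP4_neg. In females it was 11 and 13 without replicates 2 and 3 of F_DPP4_pos and 9 without replicate 3 of F_DPP4_neg, and it was 3 with total reads as the scaling and 4 (3 higher, 1 lower) after quantile normalisation.

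Between the sexes in inguinal fat, the members called were higher in males, and in DPP4_neg cells this direction depended on the scaling. In M_DPP4_neg against F_DPP4_neg, 29 members were higher and none lower, where 27.1% of all genes were higher and 30.3% lower, with a median of 0.23. In M_DPP4_pos against F_DPP4_pos, 16 were higher and none lower, where 27.1% of all genes were higher and 25.5% lower, with a median of 0.17. The share of members called higher was below that of all genes in DPP4_pos cells. These differences are small beside the spread of M_DPP4_neg. Rpl24, a late addition to the large subunit whose exons overlap Gm28037, had 6226, 4302 and 4306 normalised counts in M_DPP4_neg libraries, against 3557, 3318 and 3191 in F_DPP4_neg libraries. It had 4681, 4880 and 5337 in M_DPP4_pos libraries, against 3671, 3864 and 3866 in F_DPP4_pos libraries. Neither pair of groups overlapped, and the log2 fold changes were 0.54 ± 0.10 and 0.38 ± 0.10 (limma, Benjamini-Hochberg adjusted p = 8.28e-05 and 0.00276). Rpl29 (0.50 ± 0.12 and 0.39 ± 0.12) was higher in males in both populations, and Rps12 (0.51 ± 0.13) and Rplp2 (0.39 ± 0.13) were each among the 3 highest of 1 of them.

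Without replicate 1 of M_DPP4_neg the DPP4_neg comparison called 7 members, 5 higher and 2 lower, with a median of 0.02, Rpl24 at 0.36 ± 0.08, Rpl29 at 0.32 ± 0.11 and Rps12 at 0.26 ± 0.09, and with total reads as the scaling it called 1 higher and 9 lower, with a median of -0.05 (4 higher and 10 lower after quantile normalisation); it called 59 and 47 without replicates 2 and 3 of M_DPP4_neg and 16 and 12 without replicates 2 and 3 of F_DPP4_neg. The DPP4_pos comparison called 5 without replicate 3 of M_DPP4_pos, 6 without replicate 1 of F_DPP4_pos and 1 with total reads as the scaling. The 9 epithelial markers summed to between 11.1 and 28.6 normalised counts in M_DPP4_neg libraries and between 4109 and 9912 in F_DPP4_neg libraries, and the 3 keratins of the mesothelial list (Krt8, Krt18 and Krt19), which epithelial cells also express, to between 30.8 and 65.0 in M_DPP4_neg and between 6794 and 16484 in F_DPP4_neg. The other 6 mesothelial markers were low in both groups, between 17.3 and 44.9 in M_DPP4_neg (Muc16 at 0) and between 57.2 and 65.2 in F_DPP4_neg. The part of these markers in the result was not tested.

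The member with the widest range of group means was Rpl39l, a paralogue of Rpl39 known for its high expression in mouse testis, whose protein takes the place of Rpl39 beside the exit tunnel. It lies at chr16:10170226-10174911 on the plus strand of GRCm38, with no overlapping exon. Rpl39l had 106, 121 and 107 normalised counts in M_DPP4_pos libraries, 83, 63.4 and 95 in F_DPP4_pos, 66.0, 54.1 and 58.0 in M_DPP4_neg, and 46.9, 46.4 and 51.2 in F_DPP4_neg. In gonadal fat it had 0.945, 0.892 and 0 in M_FIP, 4.15, 2.56 and 0 in F_FIP, 1.07, 2.32 and 0 in M_APC, and 0 in all 3 F_APC libraries. Every inguinal library thus lay far above every gonadal library, in both sexes and all populations.

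Its log2 fold changes across depots were -4.98 ± 0.45 in M_APC against M_DPP4_neg and -6.18 ± 0.45 in M_FIP against M_DPP4_pos, and -5.62 ± 0.45 and -4.93 ± 0.45 for the same contrasts in females (limma, Benjamini-Hochberg adjusted p = 4.08e-10, 6.99e-12, 7.15e-11 and 1.38e-09), values that depend on the pseudocount. Without replicate 1 of M_DPP4_neg the first of these was -4.91 ± 0.51. From the reads, with 95% exact intervals that cover counting error only, M_APC held 3 reads against 165 in M_DPP4_neg, a level 53.1 times higher in M_DPP4_neg (17.8 to 260.0). M_FIP held 2 reads against 296 in M_DPP4_pos, 190 times higher in M_DPP4_pos (52.1 to 1574), and F_FIP held 8 against 263 in F_DPP4_pos, 34.4 times higher in F_DPP4_pos (17.2 to 80.4). F_APC held 0 reads against 181 in F_DPP4_neg, at least 41.3-fold higher in F_DPP4_neg when 3 counts over the group are taken as the floor. Within a depot Rpl39l was called only in F_FIP against F_APC (limma, Benjamini-Hochberg adjusted p = 0.0141), which rests on 8 reads against 0.

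The coding sequences of Rpl39l and Rpl39 show where reads of this pair can be told apart, and both are given from GENCODE M21 (GRCm38), with the bases that differ between them in capitals. Rpl39 lies at chrX:37082520-37085402 on the minus strand.
Rpl39l: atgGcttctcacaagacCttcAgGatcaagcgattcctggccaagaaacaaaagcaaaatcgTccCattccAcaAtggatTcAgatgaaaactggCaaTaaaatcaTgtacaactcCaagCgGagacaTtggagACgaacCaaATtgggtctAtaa
Rpl39: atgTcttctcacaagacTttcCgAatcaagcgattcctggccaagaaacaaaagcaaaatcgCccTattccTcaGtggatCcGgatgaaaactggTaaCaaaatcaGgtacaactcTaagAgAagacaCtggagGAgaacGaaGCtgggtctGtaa
Both are 156 bases long and differ at 23 positions (85.3% identity), and the longest identical stretch is 38 bases. Rpl39 itself had between 0 and 8.17 normalised counts over the 24 libraries and was not tested. Its protein is a standard part of the ribosome, and 74 of the tested members had means above 1000 normalised counts. Rpl39 shared 16.5% of its 50-base stretches with 9 other genes. The cause of its low count was not tested, so whether these cells express Rpl39 cannot be read from that count.

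**Figure D4:**
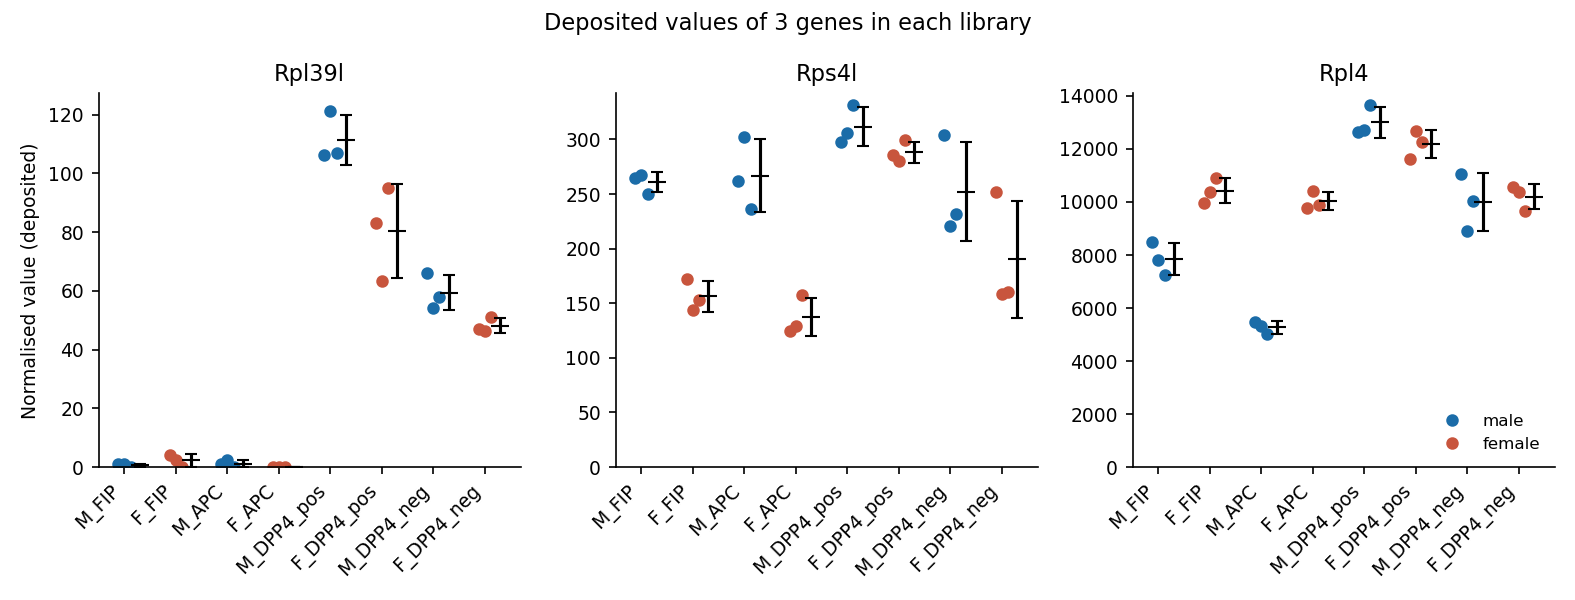
Normalised counts (y axis) of Rpl39l, Rps4l and Rpl4 in each library by group, with the mean ± SD of 3 libraries. Rpl39l lies between 46.4 and 121 in inguinal and at or under 4.15 in gonadal libraries, Rps4l is higher in male than in female gonadal groups, and Rpl4 is lowest in M_APC.

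Rps4l, at chr6:148354656-148355598 on the plus strand, shared 18.0% of its stretches with 1 other gene. Besides the gonadal groups given above, it had 297, 306 and 331 normalised counts in M_DPP4_pos, 286, 280 and 299 in F_DPP4_pos, 304, 221 and 232 in M_DPP4_neg and 252, 159 and 160 in F_DPP4_neg. In F_DPP4_pos against F_DPP4_neg it was higher without overlap of the groups, with a log2 fold change of 0.63 ± 0.14 (limma, Benjamini-Hochberg adjusted p = 0.000710). In females it was lower in gonadal cells, with log2 fold changes of -0.44 ± 0.14 in F_APC against F_DPP4_neg and -0.88 ± 0.14 in F_FIP against F_DPP4_pos. In males neither depot contrast passed the test (0.09 ± 0.14 and -0.25 ± 0.14), and the sex difference itself was called for APC against DPP4_neg (0.53 ± 0.20) and for FIP against DPP4_pos (0.63 ± 0.20; limma, Benjamini-Hochberg adjusted p = 0.0387 and 0.0190). Without replicate 1 of M_DPP4_neg the APC contrast in males was 0.23 ± 0.15 and the sex difference 0.67 ± 0.20.

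Rps27l, whose coding sequence is 76.1% identical to that of Rps27 over 255 bases, had the flattest profile. It had 447, 473 and 459 normalised counts in M_FIP, 440, 532 and 530 in F_FIP, 472, 466 and 372 in M_APC, and 567, 602 and 536 in F_APC. In inguinal fat it had 678, 767 and 730 in M_DPP4_pos, 711, 640 and 696 in F_DPP4_pos, 831, 520 and 546 in M_DPP4_neg, and 696, 676 and 590 in F_DPP4_neg. Its male and female groups overlapped in every population except APC. Rpl10l, known from testis, and Rpl3l, known from heart and skeletal muscle, had means of 0.0423 and 0.622 normalised counts, so neither could be compared.

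Genes of the same pathway outside the name rule were read from the same libraries with the same size factors, and are no independent view. Their lists were chosen with earlier results of these data known. Of 6 genes that encode ribosomal proteins or relatives of them, such as Fau and Rack1, 5 were lower in M_APC than in F_APC and 6 of 6 lower in M_APC than in M_DPP4_neg. Of 20 translation factors and partners whose mRNAs carry a TOP tract, 19 were lower in M_APC than in F_APC (median -0.62), and 15 rose in M_FIP against M_APC (median 0.38). Eef1b2, an exchange factor for elongation, averaged 1803 ± 133 normalised counts in M_APC and 3564 ± 226 in F_APC (SD, n = 3 each), with a log2 fold change of -0.98 ± 0.11. Eif2s3x, an X-linked initiation factor gene in this list, had -1.14 ± 0.09. In M_FIP against F_FIP it had -0.93 ± 0.09, where Eef1b2 had -0.49 ± 0.11. The part of X linkage in its values was not tested. The same list had 19 genes lower in M_APC against M_DPP4_neg, with or without replicate 1 of M_DPP4_neg, and 20 lower in M_FIP against M_DPP4_pos. Of all genes tested, 22.1% were lower in M_APC against F_APC and 18.9% higher in M_FIP against M_APC. With all libraries, 33.0% were lower in M_APC against M_DPP4_neg and 32.4% in M_FIP against M_DPP4_pos.

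Ribosome biogenesis factors, which process ribosomal RNA, moved with the members in some contrasts and not in others. Of 30, 20 were lower in M_APC than in F_APC (median -0.39), among them Ncl, the nucleolar protein nucleolin, at 3151 ± 185 normalised counts in M_APC and 5450 ± 201 in F_APC (SD, n = 3 each). In M_FIP against M_APC, where 61 members rose, 2 of these factors were higher and 4 lower (median -0.07). In F_APC against F_DPP4_neg, where the members had a median of 0.04, 23 factors were lower (median -0.52), and Wdr43 had a log2 fold change of -1.33 ± 0.09. In M_DPP4_pos against F_DPP4_pos, 24 factors were higher (median 0.54), led by Utp4 at 1.25 ± 0.08. Of the 12 RNA polymerase I genes, 8 were higher in M_DPP4_pos than in F_DPP4_pos and 8 lower in M_FIP than in M_DPP4_pos, where Polr1b had -2.33 ± 0.10. Of all genes tested, 22.1% were lower in M_APC against F_APC, and 18.9% higher and 18.0% lower in M_FIP against M_APC. In F_APC against F_DPP4_neg 32.2% were lower, in M_DPP4_pos against F_DPP4_pos 27.1% higher, and in M_FIP against M_DPP4_pos 32.4% lower.

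Lists of other cell machinery had medians nearer to 0 in M_APC against F_APC, but the sums of some were lower in gonadal cells in the male depot contrasts. Of 77 mitochondrial ribosomal protein genes, 4 were higher and 8 lower in M_APC against F_APC (median -0.09), and 25 higher and 18 lower in M_APC against M_DPP4_neg (median 0.06), or 32 higher and 12 lower without replicate 1 of M_DPP4_neg (median 0.23). Of all genes tested, 22.4% were higher and 22.1% lower in M_APC against F_APC, and 33.1% and 33.0% in M_APC against M_DPP4_neg. With all libraries the mitochondrial counts lay near or below these shares. Of 37 proteasome core genes, 6 were higher and 1 lower in M_APC against F_APC (median 0.01). The summed proteasome genes had between 24176 and 27012 normalised counts in M_APC libraries and between 28033 and 37643 in M_DPP4_neg libraries. Without replicate 1 of M_DPP4_neg the M_DPP4_neg sums were 28033 and 29040. They were between 24859 and 25622 in M_FIP and between 33730 and 34738 in M_DPP4_pos, so neither pair of groups overlapped. Of 20 cytosolic initiation factors, 10 were lower and 1 higher in M_APC against F_APC (median -0.17), and the cap-binding protein gene Eif4e had -2.39 ± 0.08 in M_FIP against M_DPP4_pos. The initiation factors summed to between 45933 and 47093 normalised counts in M_APC and between 68120 and 73112 in M_DPP4_neg. Of the 16 growth regulators of ribosome synthesis, such as Myc and Mtor, 6 were higher and 4 lower in M_APC against F_APC. These regulators summed to between 15946 and 16630 normalised counts in M_FIP and between 20074 and 21729 in M_DPP4_pos. Proliferation genes moved with the members in one comparison and against them in another: in M_FIP against M_APC, where 61 members rose, 12 of 20 were higher and 1 lower, whereas in M_FIP against M_DPP4_pos, where 78 members were lower, 16 of 20 were higher (median 1.58). In M_FIP against M_APC 18.9% of all genes tested were higher and 18.0% lower, and in M_FIP against M_DPP4_pos 32.6% and 32.4%. Of 10 p53 target genes, 2 were higher and 3 lower in M_APC against F_APC, near the shares of all genes tested.

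The genes outside the members whose values followed the members' mean most closely over the 24 libraries included Rps3a1, the small-subunit gene that the name rule leaves out (Pearson r = 0.987), Tpt1 (0.984), Fau (0.976), Eef1a1 (0.970), Eif3e (0.965), Eif3i (0.964) and Eef1g (0.960). These correlations are over libraries that share groups and size factors.

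**Figure D5:**
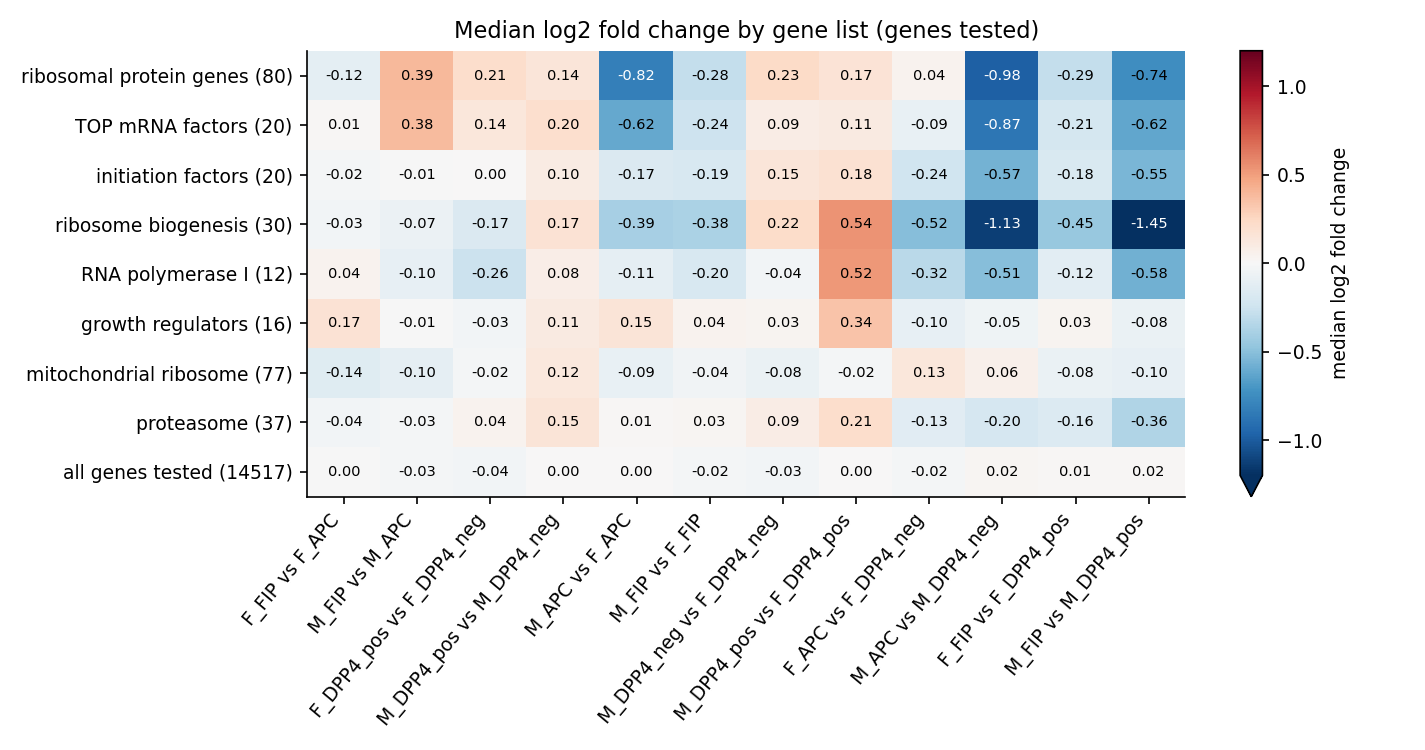
Median log2 fold change (colour) of the members and of the other gene lists (rows) in the 12 comparisons of 2 groups (columns). The members have -0.82 in M_APC against F_APC, where TOP factors have -0.62, biogenesis factors -0.39 and proteasome core genes 0.01.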

How the data were processed

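Bulk RNA-seq of 24 libraries (8 groups of 3) was deposited as 1 table of normalised values. Each NEBNext Ultra II library was made from 0.5 ug of Trizol-extracted RNA, per the labels' protocols. The submitters' processing notes name the build GRCm38 (mm10), featureCounts 1.4.6, HISAT2 2.0.1, DESeq2 1.6.3 and Trim Galore 0.4.1; annotation, strand setting and the treatment of reads with several matches are not given in the sources used here. In the table, the deposited signal values are read counts that the authors divided by 1 size factor per library: every value in each library came out as a whole number of reads within 0.01 read (100% of values), which gives the library depths of 9152470 to 18221692 reads. The reads carry no molecular identifiers, so counting intervals cover counting error only. Replicate pairs within a group differed by more than sampling noise (chi-square per degree of freedom 1.61 to 25.4 over 24 pairs).

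The tests used log2(value + 1), which understates the change of low genes. Genes that reached 10 in 3 or more libraries were fitted in limma 3.58.1 (R 4.3.3), as group means with a trended prior variance, and p-values were Benjamini-Hochberg adjusted over all 14517 genes tested in 12 comparisons and 4 differences between the sexes. The comparisons share libraries: M_APC, for example, enters M_APC against F_APC, M_FIP against M_APC and M_APC against M_DPP4_neg. The script was tested on simulated data. Alternatives were a pseudocount of 10, no filter, TMM and total read scaling, quantile normalisation, edgeR 4.0.16 and DESeq2 1.42.0 on the recovered reads, a replicate block, a fit of only the groups compared, and leaving out each library in turn.

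Members and gene lists were chosen with earlier results of these data known. Genes named are the 3 called members with the highest and the 3 with the lowest log2 fold change in a comparison, the 5 members with the highest and the lowest mean and per kilobase level, the 5 with the widest and the narrowest range of group means, paralogues, and up to 3 genes of each list; Rplp0, Rpl11, Rpl4 and Rpl10 were added for their role or level. Some genes that this rule names are not reported here. Same-numbered libraries deviated together most clearly in F_DPP4_pos and F_DPP4_neg (correlations of 0.129, 0.201 and 0.105 over the 3 pairs), where the fit with a replicate block called 18 members against 22 without it. This was the 1 comparison with every such correlation over 0.1.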

Additional observations from a re-analysis of the deposited data

Results flagged for a closer look

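By the limma test of the difference, the FIP minus APC change differed between the sexes for 50 members. In all 50 the change, not the level, was higher in males, where 5.46% of all genes were called higher and 5.33% lower. Over libraries left out the count ranged between 26 and 60. Of these members Rpl21 differed by 0.79, Rpl5 by 0.74 and Rps24 by 0.74 on the log2 scale, males minus females.

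The APC minus DPP4_neg change differed between the sexes for 77 members, all but 1 of them lower, where 20.3% of all genes were called lower and 22.6% higher. The difference, males minus females, was -1.34 for Rps24, -1.30 for Rpl21 and -1.30 for Rps28, and it was 0.53 for the pseudogene Rps4l. Without replicate 1 of M_DPP4_neg the members' median difference was -0.83, against -1.03 with it.

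The FIP minus DPP4_pos change differed between the sexes for 52 members, 51 of them lower, where 19.2% of all genes were called lower and 15.7% higher. The count was 6 with total reads as the scaling, 8 after quantile normalisation and 34 without replicate 3 of M_DPP4_pos. The difference was -0.61 for Rpl29, -0.61 for Rpl10a and -0.59 for Rpl13, and 0.63 for Rps4l.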

How the results depend on the processing

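The counts of members called kept within 1.5 times of the values above in 117 of 144 recomputations with another setting and in 83 of 120 that left out 1 library. M_APC against F_APC (77 to 78 over the libraries left out), M_APC against M_DPP4_neg (78 in each), M_FIP against M_DPP4_pos (78 in each), the APC minus DPP4_neg sex difference (76 to 77) and M_FIP against M_APC (41 to 71) did so under every alternative. Over libraries left out the other counts ranged between 1 and 5 in F_FIP against F_APC, 19 and 39 in M_FIP against F_FIP, 19 and 49 in F_FIP against F_DPP4_pos, 1 and 2 in F_APC against F_DPP4_neg, 9 and 21 in F_DPP4_pos against F_DPP4_neg, 3 and 76 in M_DPP4_pos against M_DPP4_neg, 7 and 59 in M_DPP4_neg against F_DPP4_neg, and 5 and 15 in M_DPP4_pos against F_DPP4_pos. They ranged between 26 and 60 in the FIP minus APC sex difference, 0 and 6 in that of DPP4_pos minus DPP4_neg and 34 and 53 in that of FIP minus DPP4_pos. In the settings below the cause was not tested. With total reads as the scaling, which moved the median of all genes by up to 0.44, the counts were 3 in F_DPP4_pos against F_DPP4_neg, 23 in M_FIP against F_FIP, 10 in M_DPP4_neg against F_DPP4_neg, 1 in M_DPP4_pos against F_DPP4_pos, 4 in F_FIP against F_DPP4_pos, and 1 and 6 in the DPP4_pos minus DPP4_neg and FIP minus DPP4_pos sex differences. After quantile normalisation they were 9 in F_FIP against F_APC, 4 in F_DPP4_pos against F_DPP4_neg, 4 in M_DPP4_pos against M_DPP4_neg, 14 in M_DPP4_neg against F_DPP4_neg, 3 in M_DPP4_pos against F_DPP4_pos, 5 in F_APC against F_DPP4_neg, 5 in F_FIP against F_DPP4_pos, and 2 and 8 in the same sex differences. With only the groups compared in the fit, which leaves fewer libraries for the spread, they were 15 in F_FIP against F_APC, 42 in F_DPP4_pos against F_DPP4_neg, 4 in M_DPP4_pos against M_DPP4_neg, 69 in M_FIP against F_FIP, 3 in M_DPP4_neg against F_DPP4_neg, 39 in M_DPP4_pos against F_DPP4_pos and 6 in F_APC against F_DPP4_neg. TMM scaling gave 4 in F_APC against F_DPP4_neg, edgeR 45 in M_DPP4_neg against F_DPP4_neg, and no filter 2 in F_FIP against F_APC. The replicate block gave 3 in F_FIP against F_APC and kept every other count within 1.5 times. Correlations of same-numbered libraries ran between -0.173 and 0.201 over 36 pairs, with the best match at the same number in 15. They were 0.073, 0.054 and 0.045 in M_APC against F_APC and 0.067, 0.097 and 0.046 in M_DPP4_neg against F_DPP4_neg. Each best match there was at the same number. Whether the numbers mark a shared batch is not stated. Medians that changed sign were those of M_DPP4_neg against F_DPP4_neg (-0.052 with total reads, -0.039 after quantile normalisation) and of the DPP4_pos minus DPP4_neg sex difference (0.080 and 0.060, and between -0.18 and 0.14 over libraries left out). With total reads and after quantile normalisation, medians that kept their sign but moved by over 1.5 times were 0.052 and 0.015 in F_DPP4_pos against F_DPP4_neg, 0.025 and 0.017 in M_DPP4_pos against F_DPP4_pos, -0.56 and -0.58 in M_APC against M_DPP4_neg, -0.11 and -0.097 in F_FIP against F_DPP4_pos, -0.36 and -0.36 in M_FIP against M_DPP4_pos, 0.074 and 0.075 in F_APC against F_DPP4_neg, -0.64 and -0.66 in the APC minus DPP4_neg and -0.25 and -0.26 in the FIP minus DPP4_pos sex difference; in M_DPP4_pos against M_DPP4_neg it was 0.048 after quantile normalisation. Over libraries left out they ranged between 0.015 and 0.36 in M_DPP4_pos against M_DPP4_neg, 0.020 and 0.35 in M_DPP4_neg against F_DPP4_neg, and 0.0029 and 0.085 in F_APC against F_DPP4_neg. Of single genes, none of which had passed the test in the comparison concerned, Rpl39l changed sign in M_FIP against M_APC (-0.76 to 0.10 over libraries left out), in the DPP4_pos minus DPP4_neg sex difference (-0.095, quantile normalisation) and in that of APC minus DPP4_neg (-0.10, pseudocount 10). Rps27l changed sign in M_FIP against M_APC (-0.030 to 0.14 over libraries left out), in F_DPP4_pos against F_DPP4_neg (-0.093 with total reads, -0.0082 to 0.11 over libraries left out), in M_DPP4_neg against F_DPP4_neg (-0.29 to 0.047 over libraries left out), in M_DPP4_pos against F_DPP4_pos (-0.054 with total reads, -0.0062 after quantile normalisation) and in the APC minus DPP4_neg sex difference (0.084 with total reads). Rps4l changed sign in M_FIP against M_APC (-0.11 to 0.067 over libraries left out), in M_DPP4_pos against F_DPP4_pos (-0.031 with total reads), in M_APC against M_DPP4_neg (-0.0051 to 0.23 over libraries left out) and in M_FIP against M_DPP4_pos (0.12 with total reads). Shared sequence between copies limits all counts of single members.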
